A study of Drosophila melanogaster with 6 samples.

Results

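The 9 genes described here, *Ilp6*, *ImpL2*, *InR*, *chico*, *foxo*, *Thor*, *Tsc1*, *gig* and *S6k*, are a selection from insulin and TOR growth signalling in *Drosophila melanogaster*. They were taken by FlyBase symbol out of 16455 genes in the files, and all 9 were found. RNA-seq was available from wing imaginal discs, the larval epithelia that form the adult wings, of larvae in the third instar that had expressed the proapoptotic gene *rpr* for 16 h. There were 3 libraries labelled *CR40469*-KO, a label that stands for a homozygous deletion in which an mCherry cassette replaces the locus, and 3 labelled control, each from 50 pooled discs. The larvae of both labels carried the salE/Pv-LHG driver, its temperature-sensitive repressor tub-Gal80TS and the lexO-rpr construct. The salE/Pv enhancer drives LHG only in the centre of the wing disc, so that dying and surviving regions were read together. In such bulk samples, fewer cells of a type and less RNA per cell cannot be told apart.

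When an insulin-like peptide binds the receptor InR, the substrate Chico recruits PI3K, and Akt then keeps the transcription factor Foxo out of the nucleus. When insulin signalling is low, Foxo enters the nucleus and raises the transcription of *Thor*, which encodes the translational repressor 4E-BP, and of *InR* itself. Tsc1 and Gig (the fly TSC2) form a complex that restrains Rheb and the kinase TOR, and active TOR phosphorylates S6k and 4E-BP to promote protein synthesis. In imaginal discs this pathway sets cell size and the rate of growth. Much of its control is by phosphorylation, which RNA levels do not show.

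The values are TPM, estimates of transcript abundance that RSEM scales to the same total in each library and divides by transcript length. Levels of different genes are set side by side on this scale, although the libraries differed with transcript length, as described below. No counting interval was computed, since TPM are not counts. The deleted gene was examined first. The libraries labelled *CR40469*-KO held 535.93, 389.21 and 293.78 TPM of *CR40469* (FBgn0058469), against 99.61, 46.44 and 82.52 TPM in those labelled control. It thus goes against the labels, and all directions below are those of the labels. Its near-identical copy *CR34335* averaged 1923 ± 18.7 TPM in the libraries labelled *CR40469*-KO and 3056 ± 554 TPM in those labelled control (SD, n = 3 each), and how RSEM divided reads between both genes cannot be followed. *rpr* was higher in each of the libraries labelled *CR40469*-KO (144.06, 189.81 and 164.11 TPM) than in any labelled control (132.26, 122.67 and 143.52 TPM). The same held for 7.9% of all tested genes, and *rpr* was not called in the comparison described below (limma adjusted p = 0.818). Of the 8 wing disc markers examined, all passed the filter, and their summed level was 669 to 867 TPM in the libraries labelled *CR40469*-KO and 545 to 884 TPM in those labelled control.

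None of the 9 genes was called different between the labels. Their levels were compared with limma on log2(TPM + 1) over the 8051 genes that reached 1 TPM in at least 1 library, and a call needed a Benjamini-Hochberg adjusted p under 0.05 and a fold change over 1.7. All 9 members passed the filter. Of all tested genes, 0.224% were called, 0.149% higher and 0.0745% lower in the libraries labelled *CR40469*-KO. No member had an unadjusted p under 0.05 either, against 4.82% of all tested genes, and the adjusted p from limma lay between 0.818 and 0.959. The groups overlapped for all 9, whereas 10.5% of the tested genes had groups without overlap, 7.9% with the libraries labelled *CR40469*-KO above and 2.56% with them below. Of the 9, 7 had a log2 fold change above 0, as did 74.9% of all tested genes. The median log2 fold change was 0.25 for the 9 and 0.13 for all tested genes.

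**Figure D1:**
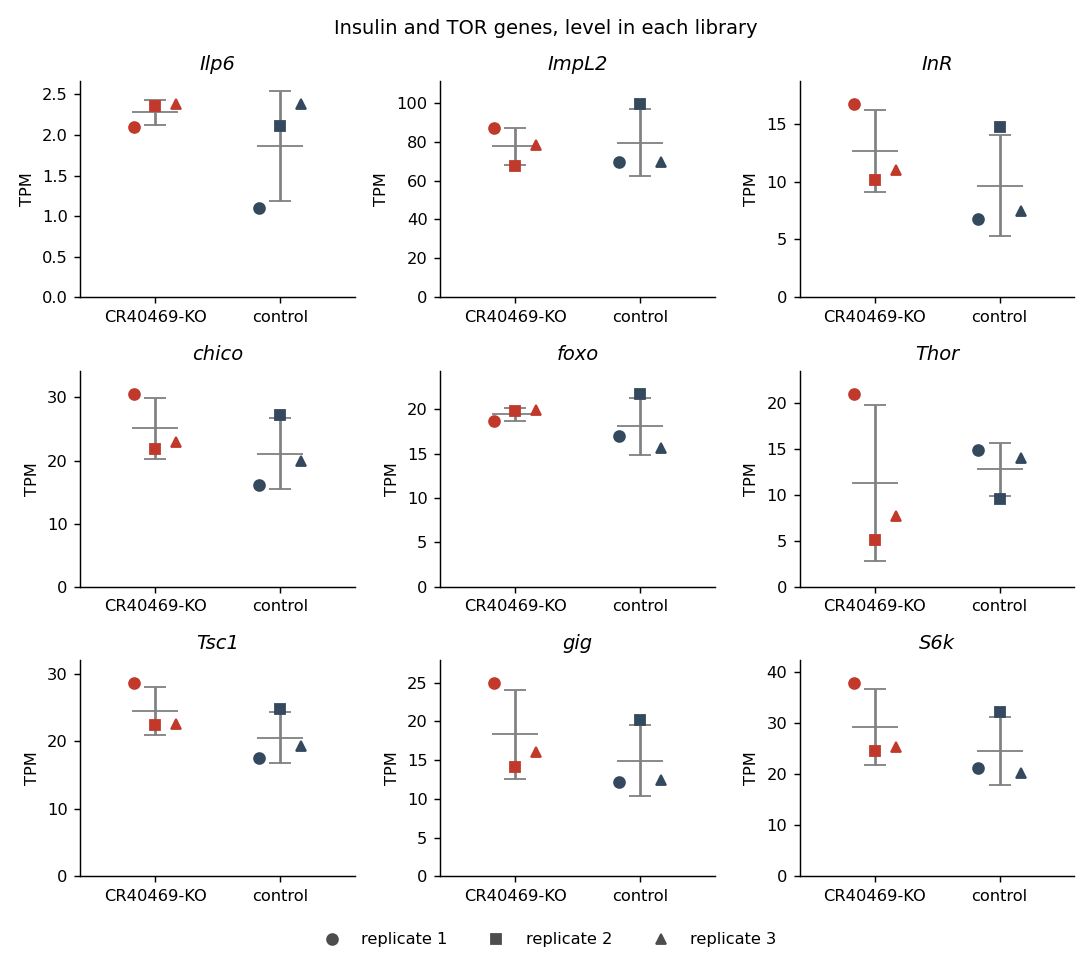
Level of each of the 9 genes in TPM (y axis, from 0) in the 3 libraries labelled CR40469-KO and the 3 labelled control; symbols mark the replicate number, and grey bars the mean and SD. The groups overlap in every panel, and for InR, chico, Tsc1, gig and S6k the highest library of each label is CR40469-KO replicate 1 and control replicate 2 (16.73 and 14.73 TPM for InR), whereas for Thor control replicate 2 is the lowest of its label (9.52 TPM).

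*ImpL2* and *Ilp6* are the secreted components of the group. *ImpL2* (FBgn0001257, chromosome 3L, 4224006 to 4236147 on the minus strand of dm6) encodes an insulin-binding protein that restrains the pathway. It was the most abundant member, with 86.88, 67.57 and 78.07 TPM in the libraries labelled *CR40469*-KO and 69.64, 99.27 and 69.67 TPM in those labelled control. The highest value thus belonged to a control library and the lowest to a library labelled *CR40469*-KO. The log2 fold change was -0.02 (standard error 0.19, limma 95% interval -0.45 to 0.41), so that the interval lay within a fold change of 1.7 either way. The annotation used here places CG46460 on the same strand with 1651 exonic bases in common with *ImpL2*. That gene has no row in the files, and its reads may be part of the *ImpL2* value.

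*Ilp6* (FBgn0044047, chromosome X, 2331493 to 2334658, minus strand) encodes an insulin-like peptide that resembles the insulin-like growth factors and is known mainly from the fat body and glia. It was the lowest member, with 2.10, 2.36 and 2.38 TPM in the libraries labelled *CR40469*-KO and 1.10, 2.11 and 2.38 TPM in those labelled control. Control replicate 1 alone was low, and the other libraries lay close together. The log2 fold change was 0.22 (standard error 0.20, limma 95% interval -0.23 to 0.68) and dropped to 0.02 without control replicate 1. Its fold change is understated by the pseudocount at so low a level. The gene overlaps the span of *Raf* on the opposite strand and shares no exonic base with it.

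Since *Ilp6* and *ImpL2* are also made outside the disc, markers of other tissues were set beside them. The 8 fat body genes summed to 13.3, 8.42 and 8.42 TPM in the libraries labelled *CR40469*-KO and to 19.16, 19.16 and 11.84 TPM in those labelled control. Of the 8, 6 were tested and none was called, 2 of them had an unadjusted p under 0.05 (4.82% of all tested genes), and 3 of the 6 were lower in each of the libraries labelled *CR40469*-KO than in any control (2.56% of all tested genes). Of the 6, 5 had a log2 fold change below 0, and *Lsp1gamma* was at 0.13. *Fbp2*, which had the smallest p of them, was at 0.52, 0.88 and 0.95 TPM in the libraries labelled *CR40469*-KO. It was at 3.02, 2.96 and 2.06 TPM in those labelled control (limma adjusted p = 0.0747). *Tsf1*, a large part of the sums, overlapped between the labels, with 8.58, 4.20 and 4.42 TPM against 10.14, 3.74 and 5.79 TPM in control. The 6 haemocyte genes, of which 4 were tested, summed to 4.54 to 8.56 TPM in the libraries labelled *CR40469*-KO and to 2.24 to 7.39 TPM in those labelled control. Muscle genes summed to 49.0 to 68.1 TPM, tracheal genes to 14.6 to 18.7 TPM and neuronal genes to 9.20 to 12.3 TPM in the libraries labelled *CR40469*-KO, against 44.4 to 62.1, 11.9 to 18.7 and 6.56 to 9.26 TPM in those labelled control. None of the 4 muscle genes, the 2 tracheal genes and the 1 neuronal gene that were tested was called. The tracheal gene *btl* and the neuronal gene *elav* were higher in each of the libraries labelled *CR40469*-KO than in any control (7.9% of all tested genes). *elav*, with 9.02 to 12.0 TPM against 6.39 to 8.87 TPM, made up almost all of the neuronal sum. Its longest transcript is 10506 bp, and the libraries differed with transcript length, as described below. The neuronal genes *brp* and *nSyb* stayed under the filter, and *nSyb* averaged 0.193 TPM with the label *CR40469*-KO and 0.243 TPM with control. The part of other tissues in the levels of *Ilp6* and *ImpL2* was not tested.

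The receptor gene *InR* (FBgn0283499, chromosome 3R, 21570248 to 21619321, minus strand) encodes the single insulin receptor of the fly. It is the longest member, with a longest annotated transcript of 10706 bp and a coding sequence of 2144 codons. It was at 16.73, 10.20 and 11.02 TPM in the libraries labelled *CR40469*-KO and at 6.80, 14.73 and 7.50 TPM in those labelled control. *CR40469*-KO replicate 1 and control replicate 2 were the highest, and the other control libraries the lowest. The log2 fold change of 0.40 (standard error 0.29, limma 95% interval -0.28 to 1.08) corresponds to a fold change of 1.32 with an interval from 0.823 to 2.11. It was 0.19 without *CR40469*-KO replicate 1 and 0.71 without control replicate 2. The exact two-sided permutation test over the 6 libraries gave p = 0.30, where 3 against 3 allow no p below 0.10.

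*chico* (FBgn0024248, chromosome 2L, 10242512 to 10247078, minus strand), the insulin receptor substrate, repeated this order. It was at 30.56, 21.79 and 22.91 TPM in the libraries labelled *CR40469*-KO and at 16.08, 27.25 and 19.95 TPM in those labelled control. Again *CR40469*-KO replicate 1 and control replicate 2 were at the top and control replicate 1 at the bottom (log2 fold change 0.26, standard error 0.22). With 1 library left out the log2 fold change of *chico* lay between 0.09 (without control replicate 1) and 0.45 (without control replicate 2). The antisense RNA *CR44995*, which shares 380 exonic bases with *chico* on the opposite strand, was listed at 0 in every library.

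The transcription factor gene *foxo* (FBgn0038197, chromosome 3R, 14056945 to 14087978, plus strand) was the steadiest of the 9. It was at 18.62, 19.77 and 19.92 TPM in the libraries labelled *CR40469*-KO and at 16.93, 21.73 and 15.58 TPM in those labelled control. The libraries labelled *CR40469*-KO lay within a ratio of 1.07 of each other and between the extremes of the control libraries. The log2 fold change was 0.11 (standard error 0.16, limma 95% interval -0.25 to 0.48), below the median of all tested genes, and turned to -0.01 when each library was scaled by its median ratio.

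*Thor* (FBgn0261560, chromosome 2L, 3478434 to 3479612, plus strand), the Foxo target that encodes the repressor 4E-BP, was the most variable. It is also the shortest member, with a longest transcript of 755 bp that codes for 117 amino acids. It was at 21.01, 5.14 and 7.70 TPM in the libraries labelled *CR40469*-KO and at 14.87, 9.52 and 14.02 TPM in those labelled control. Both the highest and the lowest value thus carried the label *CR40469*-KO, a 4.09-fold spread within that label against 1.56-fold within control. Its residual SD on the log2 scale was larger than that of 98.6% of the tested genes. The log2 fold change was -0.36 (standard error 0.43, limma 95% interval -1.35 to 0.62, exact two-sided permutation p = 0.60). It was -0.89 without *CR40469*-KO replicate 1 (limma adjusted p = 0.255) and 0.03 without *CR40469*-KO replicate 2, so that the difference rests on which of these libraries is kept.

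The levels of *Thor* and *InR* changed places between libraries. In control replicate 2, *InR* was the higher of the pair, at 14.73 TPM against 9.52 TPM for *Thor*, and in control replicates 1 and 3 it was the lower, at 6.80 and 7.50 TPM against 14.87 and 14.02 TPM for *Thor*. In *CR40469*-KO replicate 1 *Thor* was the higher, at 21.01 against 16.73 TPM. In replicates 2 and 3 it was the lower, at 5.14 and 7.70 TPM against 10.20 and 11.02 TPM. Over the 6 libraries *Thor* exceeded *InR* in 3. The transcripts of *Thor* and *InR* lie at opposite ends of the length range. In the control libraries the medians of all tested genes shifted in the same direction over that range. The median deviation from the mean of the libraries was -0.18 in control replicate 2 and 0.18 in control replicate 1 for transcripts around 701 bp. For those around 8497 bp it was 0.27 and -0.42 (log2 scale). In *CR40469*-KO replicates 1 and 2 the medians shifted the other way from the pair. They were -0.15 and 0.73 in replicate 1, and 0.03 and -0.16 in replicate 2. The cause of the exchange was not tested. The order of libraries seen for *Thor* was nearer to that of *Ilp8*, which encodes an insulin-like peptide that damaged discs secrete to delay metamorphosis. *Ilp8* was at 19.55, 2.65 and 4.48 TPM in the libraries labelled *CR40469*-KO and at 12.58, 1.29 and 8.89 TPM in those labelled control. The same 3 libraries, *CR40469*-KO replicate 1 and control replicates 1 and 3, held the highest values of both genes. The likeness of *Thor* and *Ilp8* was noticed after the values were seen and is given as a description. *Ilp8* varied 7.38-fold within the label *CR40469*-KO and 9.75-fold within control, and its log2 fold change between the labels was 0.14 with a standard error of 0.78, at a limma adjusted p of 0.944.

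**Figure D2:**
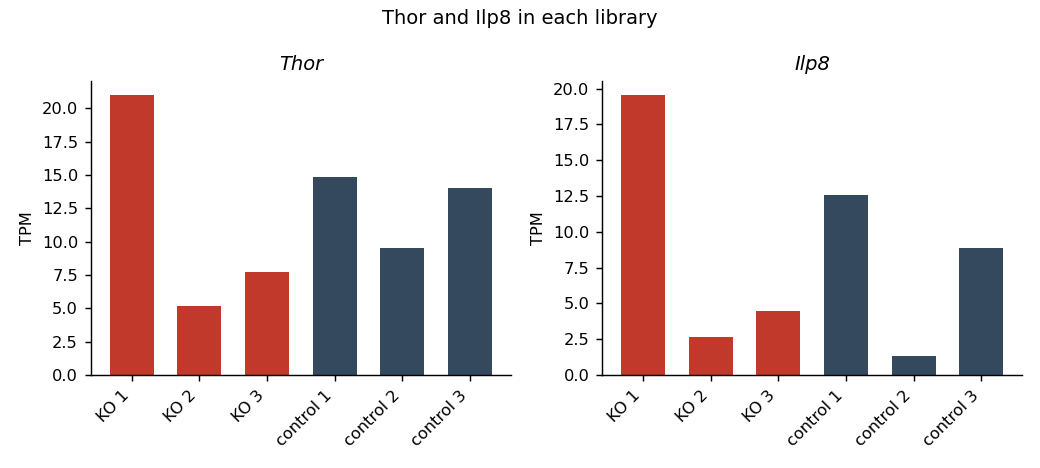
Levels of Thor (left) and Ilp8 (right) in TPM (y axis, from 0), one bar per library, red for the label CR40469-KO and blue-grey for control. CR40469-KO replicate 1 is the highest bar in both panels (21.01 and 19.55 TPM), and CR40469-KO replicates 2 and 3 and control replicate 2 are the 3 lowest of each gene.

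The genes of the TSC complex, which restrains TOR, had the same libraries at the top. *Tsc1* (FBgn0026317, chromosome 3R, 24130307 to 24134654, plus strand) was at 28.59, 22.40 and 22.60 TPM in the libraries labelled *CR40469*-KO and at 17.51, 24.79 and 19.39 TPM in those labelled control. *gig* (FBgn0005198, chromosome 3L, 20129181 to 20139010, plus strand) was at 24.89, 14.08 and 16.03 TPM in the libraries labelled *CR40469*-KO and at 12.16, 20.18 and 12.39 TPM in those labelled control. *CR40469*-KO replicate 1 and control replicate 2 were again the highest for each gene. The log2 fold changes were 0.25 for *Tsc1* (standard error 0.18) and 0.28 for *gig* (standard error 0.26). That of *gig* was 0.047 without *CR40469*-KO replicate 1 and 0.50 without control replicate 2, and that of *Tsc1* was 0.14 and 0.39. *Tsc1* exceeded *gig* in every library, with a ratio of 1.38 ± 0.222 in the libraries labelled *CR40469*-KO and 1.41 ± 0.170 in those labelled control (SD, n = 3 each). The difference in the log2 ratio, -0.03, was within the spread of the libraries (exact two-sided permutation test, p = 0.90).

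*S6k* (FBgn0283472, chromosome 3L, 5797549 to 5810931, minus strand) encodes the kinase that TOR activates to promote growth. It was at 37.77, 24.49 and 25.36 TPM in the libraries labelled *CR40469*-KO and at 21.26, 32.15 and 20.18 TPM in those labelled control. *CR40469*-KO replicate 1 and control replicate 2 stood above the other libraries (log2 fold change 0.25, standard error 0.23, limma 95% interval -0.29 to 0.78). Its log2 fold change was 0.05 without *CR40469*-KO replicate 1 and 0.45 without control replicate 2. The gene *CG42272* overlaps the span of *S6k* on the opposite strand, shares no exonic base with it and was at 14.45 to 19.16 TPM.

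By mean level over the 6 libraries the order was *ImpL2* (78.5 TPM), *S6k* (26.9 TPM), *chico* (23.1 TPM), *Tsc1* (22.5 TPM), *foxo* (18.8 TPM), *gig* (16.6 TPM), *Thor* (12.0 TPM), *InR* (11.2 TPM) and *Ilp6* (2.07 TPM). *ImpL2* was above *S6k* in 6 of 6 libraries, by a ratio of at least 2.30, and *InR* was above *Ilp6* in 6 of 6, by at least 3.15. The genes between lay closer together. *S6k* was above *chico* and *Tsc1* above *foxo* in 6 of 6 libraries, yet by as little as 1.01 and 1.03. *chico* exceeded *Tsc1* in 4 libraries, *foxo* exceeded *gig* in 5, and *gig* exceeded *Thor* in 4. Among the genes with at least 1 TPM in a library, *ImpL2* lay between the percentiles 75.1 and 82.9, *Thor* between 11.6 and 32.7 and *Ilp6* between 0.572 and 6.07.

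**Figure D3:**
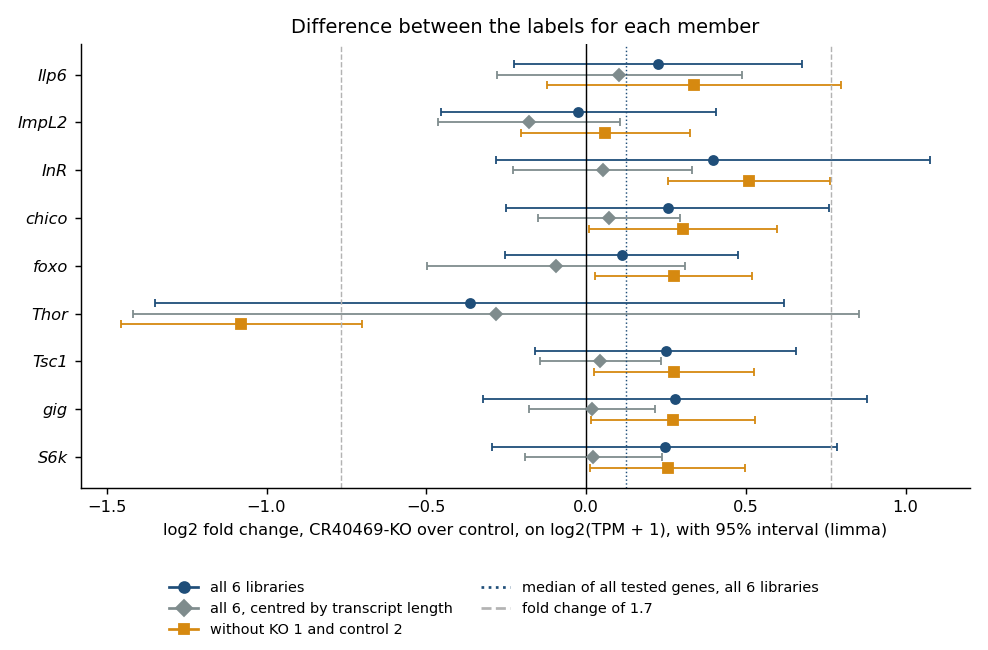
Log2 fold change of each member, CR40469-KO over control, on the log2(TPM + 1) scale (x axis) with the 95% interval from limma, for all 6 libraries (circles), after centring each library by transcript length (diamonds) and without CR40469-KO replicate 1 and control replicate 2 (squares). With all 6 libraries every interval includes 0; without the 2 libraries InR is at 0.51 and Thor at -1.08.

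The members with long transcripts, other than *foxo*, had the same libraries at the top. Of the 9, *InR*, *gig*, *S6k*, *foxo*, *Tsc1* and *chico* fall in the longest of 4 equal classes of transcript length, 3377 bp and over. In that class the median deviation of all genes from their own mean over the 6 libraries was 0.47 in *CR40469*-KO replicate 1, -0.10 in replicate 2 and -0.03 in replicate 3. It was -0.34, 0.22 and -0.22 in control replicates 1, 2 and 3 (log2 scale). The medians over the 9 members were 0.42, -0.06 and 0.02 in the libraries labelled *CR40469*-KO and -0.33, 0.26 and -0.19 in those labelled control, in the same order of libraries. In the class of the shortest transcripts, up to 1247 bp, these signs were opposite except in *CR40469*-KO replicate 3 (-0.00041). The medians were -0.09 in *CR40469*-KO replicate 1 and -0.15 in control replicate 2 against 0.09 and 0.08 in control replicates 1 and 3. Of the members, *Thor* alone is in that class, but it deviated by 0.88 in *CR40469*-KO replicate 1 and by -0.96 in replicate 2, where the medians of the class were -0.09 and 0.05. The highest value was in *CR40469*-KO replicate 1 for 6 of the 9 members, for 51.9% of all tested genes and for 80.6% of those in the longest class.

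**Figure D4:**
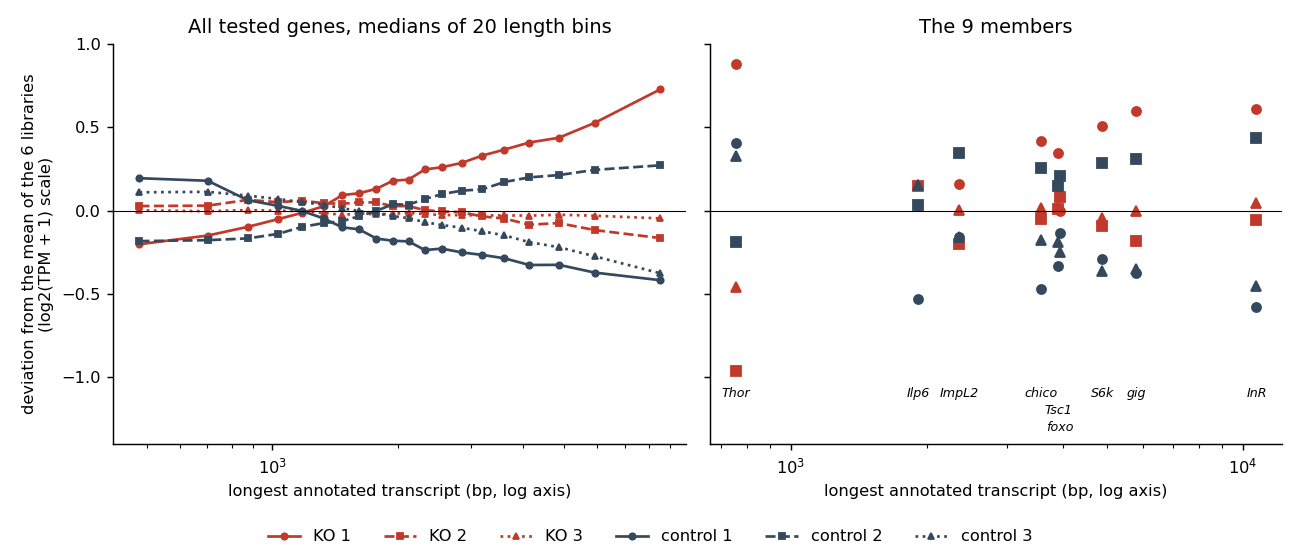
Deviation of each library from the mean of the 6 libraries on the log2(TPM + 1) scale (y axis) against the longest annotated transcript (x axis, log scale): medians of 20 bins of all tested genes (left) and the 9 members (right). For long transcripts CR40469-KO replicate 1 and control replicate 2 lie above the other libraries and control replicates 1 and 3 below, and the members other than Thor mostly follow, with InR at 0.61 and 0.43 in the upper libraries.

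When each library was centred within 20 bins of transcript length, an alternative chosen after the data were seen, the log2 fold changes of the long members came closer to 0. The centring subtracts the median deviation of each bin in each library. It thus moves the typical gene of a bin towards 0 by construction, and the median of all tested genes was -0.0023. The log2 fold change of *InR* was then 0.05 (standard error 0.12), that of *S6k* 0.02 (standard error 0.09), that of *gig* 0.02 (standard error 0.08), that of *Tsc1* 0.04 (standard error 0.08) and that of *chico* 0.07 (standard error 0.09). *foxo* turned to -0.09 (standard error 0.17). *Thor* kept its wide interval, at -0.28 (standard error 0.48).

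Leaving out *CR40469*-KO replicate 1 and control replicate 2 together, also chosen after the data were seen, gave a call for *Thor*. The values that remain were 5.14 and 7.70 TPM with the label *CR40469*-KO and 14.87 and 14.02 TPM with the label control, a log2 fold change of -1.08 that was called, with a standard error of 0.16 and a limma adjusted p of 0.0133. *Ilp8* was called as well, at -1.37 (limma adjusted p = 0.0144). *InR* had a limma adjusted p of 0.0427 at a log2 fold change of 0.51, short of a fold change of 1.7. In that fit 7 of the 9 members had an unadjusted p under 0.05, beside 24.9% of the 7928 genes then tested, and 2.12% were called. *InR*, *gig*, *S6k*, *foxo*, *Tsc1* and *chico* belong to the class of the longest transcripts, whose share in that fit was not computed. The count is therefore not read as particular to the members. The libraries left out held the highest *Thor* and *Ilp8* values of the label *CR40469*-KO (21.01 and 19.55 TPM). They also held the lowest of control (9.52 and 1.29 TPM). For *Thor* and *Ilp8* the choice itself thus widens the difference and narrows the spread, and their p-values are no evidence of a difference. With 2 libraries per label left after a choice made on the data, these values describe the 4 libraries.

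Of the wider pathway, 47 further genes were examined and 39 passed the filter. None was called (0.224% of all tested genes), none had an unadjusted p under 0.05 (4.82%), and the groups overlapped for all 39 (10.5% without overlap). The median log2 fold change was 0.16, with 35 above 0 and 4 below, beside 74.9% above 0 of all tested genes. *CR40469*-KO replicate 1 was the highest library for 27 of the 39 (69.2%, against 51.9% of all tested genes), and control replicate 1 the lowest for 23 (59.0%, against 49.6%).

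On the receptor side all 8 genes passed the filter. *Pi3K92E*, the catalytic subunit of PI3K, was at 48.90, 25.25 and 30.05 TPM in the libraries labelled *CR40469*-KO and at 23.46, 38.41 and 26.46 TPM in those labelled control, with the same libraries at the top as for *InR*. *Akt*, the kinase that inhibits Foxo, averaged 72.6 ± 7.18 TPM in the libraries labelled *CR40469*-KO and 63.7 ± 11.9 TPM in those labelled control (SD, n = 3 each; log2 fold change 0.20). Of the 7 other ligands, *Ilp8* alone was tested. *Ilp1*, *Ilp2* and *Ilp3*, known from the insulin-producing neurons of the brain, were listed at 0 in every library.

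Among the genes of the TOR complexes, *Tor* itself (mTor in the annotation, FBgn0021796) spread most between libraries. It was at 44.28, 18.45 and 21.16 TPM in the libraries labelled *CR40469*-KO and at 14.75, 28.64 and 16.40 TPM in those labelled control (log2 fold change 0.42, limma adjusted p = 0.818). *raptor*, the partner of TOR in the complex that activates S6k, had a log2 fold change of 0.38 (standard error 0.26). *Rheb*, the small GTPase that the TSC complex inhibits, averaged 79.5 ± 11.3 TPM in the libraries labelled *CR40469*-KO and 75.6 ± 10.1 TPM in those labelled control (SD, n = 3 each), and its highest value was in *CR40469*-KO replicate 2. Of the 14 genes of nutrient and energy sensing, 13 were tested and all had a log2 fold change between 0.04 and 0.34, beside 74.9% above 0 of all tested genes. After centring by transcript length the 13 lay between -0.13 (*SNF4Agamma*) and 0.14 (*RagA-B*).

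*scyl*, an inhibitor of TOR that hypoxia induces, was at 268.24, 230.54 and 207.82 TPM in the libraries labelled *CR40469*-KO and at 132.31, 234.62 and 179.21 TPM in those labelled control, which overlap through control replicate 2 (log2 fold change 0.40, limma adjusted p = 0.818). Its relative *chrb* had a log2 fold change of 0.16. Among the outputs, *Myc*, a driver of ribosome synthesis and growth, was at 70.17, 46.15 and 46.42 TPM in the libraries labelled *CR40469*-KO and at 34.10, 63.84 and 35.86 TPM in those labelled control. The highest values of *Myc* were again in *CR40469*-KO replicate 1 and control replicate 2 (log2 fold change 0.31, standard error 0.27). After centring by transcript length the log2 fold change of *Myc* was -0.04, that of *raptor* 0.03, that of *Tor* 0.08, that of *Akt* -0.03, that of *Pi3K92E* -0.02 and that of *chrb* -0.10, and that of *scyl* was 0.22.

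**Figure D5:**
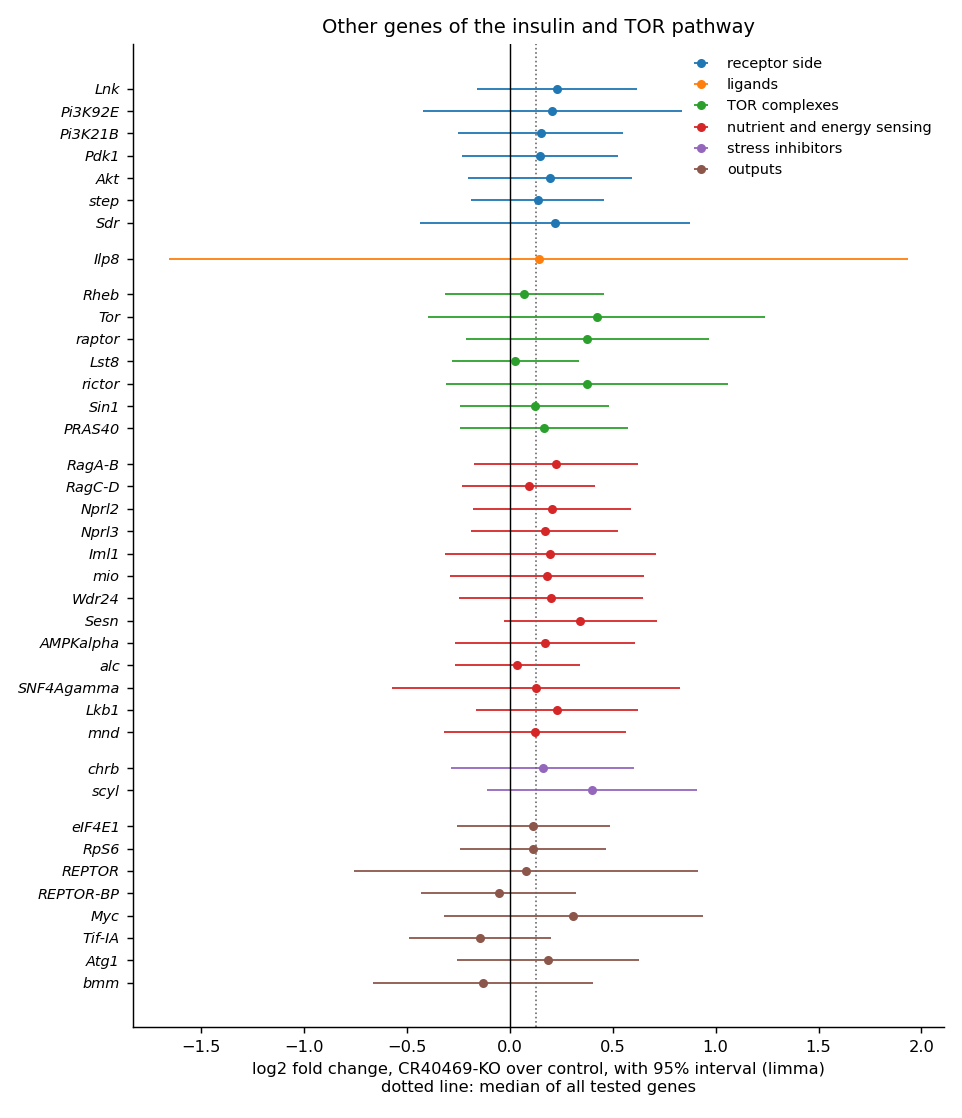
Log2 fold change, CR40469-KO over control, with the 95% interval from limma (x axis) for 38 of the 39 further pathway genes that passed the filter, coloured by role; the dotted line is the median of all tested genes. Every interval drawn includes 0, and the points lie between -0.15 and 0.42.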

How the data were processed

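RNA-seq of 3 libraries labelled *CR40469*-KO and 3 labelled control was used. Per the labels and methods, the authors aligned paired reads to dm6 with STAR 2.4.0j and quantified FlyBase r6.29 genes with RSEM 1.2.21. The deposited TPM, written to 2 decimals, were taken as they are. Whether counting used the strand is not given in the sources used here, and the labels do not say that the replicates come from separate crosses, so p-values measure only the spread between these libraries. Symbols, positions and transcript lengths came from the FlyBase genes of the Ensembl annotation on dm6 coordinates, and 53 of 16455 identifiers had no symbol.

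The genes that reached 1 TPM in 1 or more libraries were fitted with limma 3.58.1 in R 4.3.3 on log2(TPM + 1), with the label as the only term. The fit was also run on simulated data with independent noise for each gene. These lack the shift with transcript length, so the fit was not tested for it. Permutation tests were exact (scipy 1.17.1), and figures were drawn with matplotlib 3.10.9. The members and gene lists were chosen with earlier results of these data known. Named were the members, a fixed part of the wider list, *CR40469*, *CR34335*, *rpr*, tissue markers set beside a result, and genes of most similar profile. The alternatives were another pseudocount, other filters, median-ratio scaling, a variance trend, the replicate block and each library left out. No sequences are shown, as none of the tables used here holds them. Of the wider list, 1 gene is counted but not reported here by name.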

Additional observations from a re-analysis of the deposited data

How the results depend on the processing

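The number of called genes over all tested genes, 18, was 11 without a filter, 9 with a filter of 5 TPM in 3 libraries, 6 (without control replicate 1) to 35 (without *CR40469*-KO replicate 1) with 1 library left out, 168 without *CR40469*-KO replicate 1 and control replicate 2 together, and 33 after centring by transcript length. With the replicate number as a block it was 31. The block changed no call among the members or the wider list. The deviations of same-numbered libraries had correlations of -0.03, -0.35 and 0.16, and those of differently numbered libraries lay between -0.39 and 0.47. So few values cannot show whether same-numbered libraries share more than a number. Among the 9 members 0 were called under each other alternative, and 1 member and 1 wider pathway gene, *Thor* (log2 fold change -1.08) and *Ilp8*, without the 2 libraries. Those libraries were chosen on the data, and leaving them out itself favours these calls. The median log2 fold change of the members was 0.09 to 0.39 with 1 library left out and 0.023 after centring by length. Median-ratio scaling moved the median of all tested genes from 0.13 to 0.0016 and left 6 of 9 members above 0. *foxo* turned to -0.012 under that scaling and to -0.093 after centring by length. *ImpL2* ranged from -0.11 to 0.14 with 1 library left out and was 0.06 without the 2 libraries, -0.15 under median-ratio scaling and -0.18 after centring by length, and *Thor* ranged from -0.89 to 0.027. Under median-ratio scaling *Thor* was at -0.49 and *InR* at 0.28. The log2 ratio of *Tsc1* to *gig* differed by -0.13 to 0.091 with 1 library left out. With 5 TPM in 3 libraries *Ilp6* was not tested. For these changes the cause was not tested. TPM carry no counting error, which limits *Ilp6* most.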

Other observations

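Genes of similar profile were looked up for the member of the highest mean level and for that of the largest absolute log2 fold change over all 6 libraries without further scaling, by the root mean square difference of the centred log2(TPM + 1) values over the 6 libraries among all tested genes. For *ImpL2* the closest were *CG42354* (0.0522), *Prx6c* (0.0552) and *ste24b* (0.0586). *CG42354* was at 29.59, 21.26 and 23.56 TPM in the libraries labelled *CR40469*-KO and at 21.70, 30.54 and 21.82 TPM in those labelled control. For *InR* the closest were *Cad87A* (0.0364), a cadherin, *Prosap* (0.0366), the fly Shank protein of synapses, and *CG10011* (0.0439). *Cad87A* was at 54.11, 31.13 and 34.74 TPM in the libraries labelled *CR40469*-KO and at 21.87, 46.73 and 24.42 TPM in those labelled control.

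*Thor* was added after its values were seen. No gene came as close to it as these did to *InR*. The root mean square difference grows with the size of the deviations, and the residual SD was 0.71 for *Thor* and 0.46 for *InR*. These distances therefore do not show which profile is rarer in shape. The nearest were *CG12643* (0.223), *D2hgdh* (0.236) and *CG13041* (0.237), and *CG13041* was at 48.67, 9.45 and 14.22 TPM in the libraries labelled *CR40469*-KO and at 42.73, 19.13 and 29.04 TPM in those labelled control. A description over 6 libraries among 8050 genes says nothing of shared function or control.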
